A study of Homo sapiens with 12 samples.

Results

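The snoRNA host genes are genes whose introns contain small nucleolar RNAs. The 10 described here were taken by symbol: SNHG1, SNHG3, SNHG5, SNHG6, SNHG7, SNHG8, SNHG12, SNHG15, GAS5 and ZFAS1. All 10 had a row among the 26334 genes counted, and all 10 passed the filter on low counts that left 15352 genes to test.

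Small nucleolar RNAs guide the chemical modification and processing of ribosomal RNA. Box C/D snoRNAs (SNORD) guide ribose methylation and box H/ACA snoRNAs (SNORA) guide the conversion of uridine to pseudouridine. Most human snoRNAs are cut out of introns of longer transcripts, so each one is made only when its host is transcribed and spliced. In the host genes described here the spliced exons code for no known protein. Many such transcripts begin with a run of pyrimidines, as mRNAs of ribosomal proteins do, are bound by ribosomes and are removed in the cytoplasm by nonsense-mediated decay. Their spliced RNA therefore depends on transcription, on splicing and on decay.

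The libraries came from A549 cells, a human lung adenocarcinoma line. Cells were infected with a lentivirus that carried either a control shRNA (control cells) or 1 shRNA against RNF113A (RNF113A-depleted cells), and all of them were selected with puromycin at 1 µg/ml for 4 days. Each kind of cell was left untreated or was treated with Cisplatin, a platinum drug that crosslinks DNA, at 25 µg/ml for 20 h, with 3 biological replicates in each of the 4 groups. RNF113A is a zinc finger and RING domain protein of the spliceosome, and the design asks how its depletion and DNA damage change gene expression and splicing, alone and together. The cells are a single line and the depletion rests on a single shRNA, so an effect of the shRNA and an effect of the depletion cannot be told apart.

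RNF113A itself, the targeted gene, was at 20.3, 19.5 and 19.8 CPM (counts scaled to the library's total on genes, with TMM factors) in the 3 untreated control libraries and at 15.3, 15.8 and 16.8 in the 3 untreated depleted libraries. With Cisplatin it was at 31.5, 28.9 and 27.7 in control cells and at 25.8, 24.3 and 29.9 in depleted cells. The untreated groups did not overlap and the treated groups did. The log2 fold change upon depletion was -0.31 (SE 0.092, adjusted p = 0.0247) in untreated cells and -0.14 (SE 0.091, adjusted p = 0.233) in treated cells, and the second did not pass the test. Each library had 26220526 to 45721152 read pairs on genes, of which the 10 host genes took 0.0631% to 0.123%. The 8 A549 markers were expressed in every library, at a summed level of 12960 to 31240 CPM, and of 6 markers of other cells only CD68 passed the filter on low counts (25.9 to 75.4 CPM). The 2 control libraries numbered 2 stood apart: their deviations from their group means ran against those of replicates 1 and 3 of the other treatment (Pearson's r from -0.692 to -0.576 across 9779 genes, which are not independent). Counts without these libraries are given beside the results. RNA was taken from whole cultures, in which fewer cells of a type and less RNA per cell cannot be told apart.

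The host genes differ in size and in what surrounds them (GRCh37, the build the authors call hg19, with RefSeq transcripts of the authors' annotation). GAS5 (chr1:173833039-173837125, minus strand) has 12 exons and holds 10 of the listed snoRNAs, and SNHG1 (chr11:62619460-62623360, minus strand) has 11 exons and holds 8. SNHG12 (chr1:28905050-28908366, minus strand) holds 4, and ZFAS1 (chr20:47894715-47905795, plus strand) holds 3 of the SNORD12 family. For SNHG7 (chr9:139619046-139622636, minus strand) 4 are listed, of which only SNORA17 and SNORA43 had a row and could be placed. SNHG5 (chr6:86386725-86388451, minus strand) holds 2. For SNHG3 (chr1:28832455-28837404, plus strand) 2 are listed, of which only SNORA73B had a row and could be placed. SNHG15 (chr7:45022627-45026259, minus strand) and SNHG8 (chr4:119199917-119200978, plus strand) hold 1 each. SNHG3 shares exons with RCC1 on the same strand, with 2095 of its 2346 exonic nt unshared, so some reads of these genes cannot be assigned. GAS5, SNHG7, SNHG12 and ZFAS1 overlap exons of GAS5-AS1, FAM69B, TRNAU1AP and ZNFX1 on the opposite strand, which the stranded counts keep apart: 0.0311% to 0.908% of the reads of the 10 host genes lay on the other strand.

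Runs of pyrimidines at or near the annotated starts were counted. A run of at least 5 bases C or T on the transcript's strand, touching the 5 bases on either side of the most upstream annotated start, was present in 8 of the 10 host genes and in 30.9% of 32556 RefSeq start sites. SNHG15 and ZFAS1 lacked it. The run of SNHG7 (11 bases) begins 14 bases before the annotated start and ends before it, and that of SNHG3 begins at base 3. Each host gene was read at its most upstream start only, while the share covers all annotated starts. A run of at least 8 was present in 2 of the 10 and in 9.73% of all starts. The starts of GAS5, SNHG5 and SNHG1, which have the run, and of ZFAS1, which does not, are shown 5′ to 3′ with 15 bases before the start and 25 from it on, the longest run touching that window in capitals:
GAS5 (chr1:173837101-173837140, minus strand): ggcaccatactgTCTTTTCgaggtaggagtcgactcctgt
SNHG5 (chr6:86388427-86388466, minus strand): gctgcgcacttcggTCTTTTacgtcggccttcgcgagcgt
SNHG1 (chr11:62623336-62623375, minus strand): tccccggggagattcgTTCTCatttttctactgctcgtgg
ZFAS1 (chr20:47894700-47894739, plus strand): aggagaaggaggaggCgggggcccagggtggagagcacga
The run is 7 bases in GAS5, 6 in SNHG5, 5 in SNHG1 and 1 in ZFAS1. It is a description of letters at annotated starts, since start sites were not measured in these libraries.

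Levels per length differed widely between the host genes. Over the 4 group means, SNHG5 was at 406 to 612 CPM per kb of exon, the highest of the 10. GAS5 (130.1 to 283), SNHG6 (136 to 215), ZFAS1 (103 to 158) and SNHG1 (81.9 to 183) followed in overlapping ranges. SNHG8 was at 47.2 to 73.001 and SNHG15 at 25.6 to 68.1 CPM per kb. SNHG12 (12.6 to 43.9), SNHG3 (10.5 to 29.1) and SNHG7 (13.2 to 19.9) were the lowest of the 10 in untreated control cells, where SNHG12 was at 12.6, SNHG7 at 13.2 and SNHG3 at 20.1 CPM per kb, and their order differed between groups. For SNHG3 the length used was the 2095 nt of exon that it does not share with RCC1. All further levels are in CPM and are compared within a gene only.

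**Figure D1:**
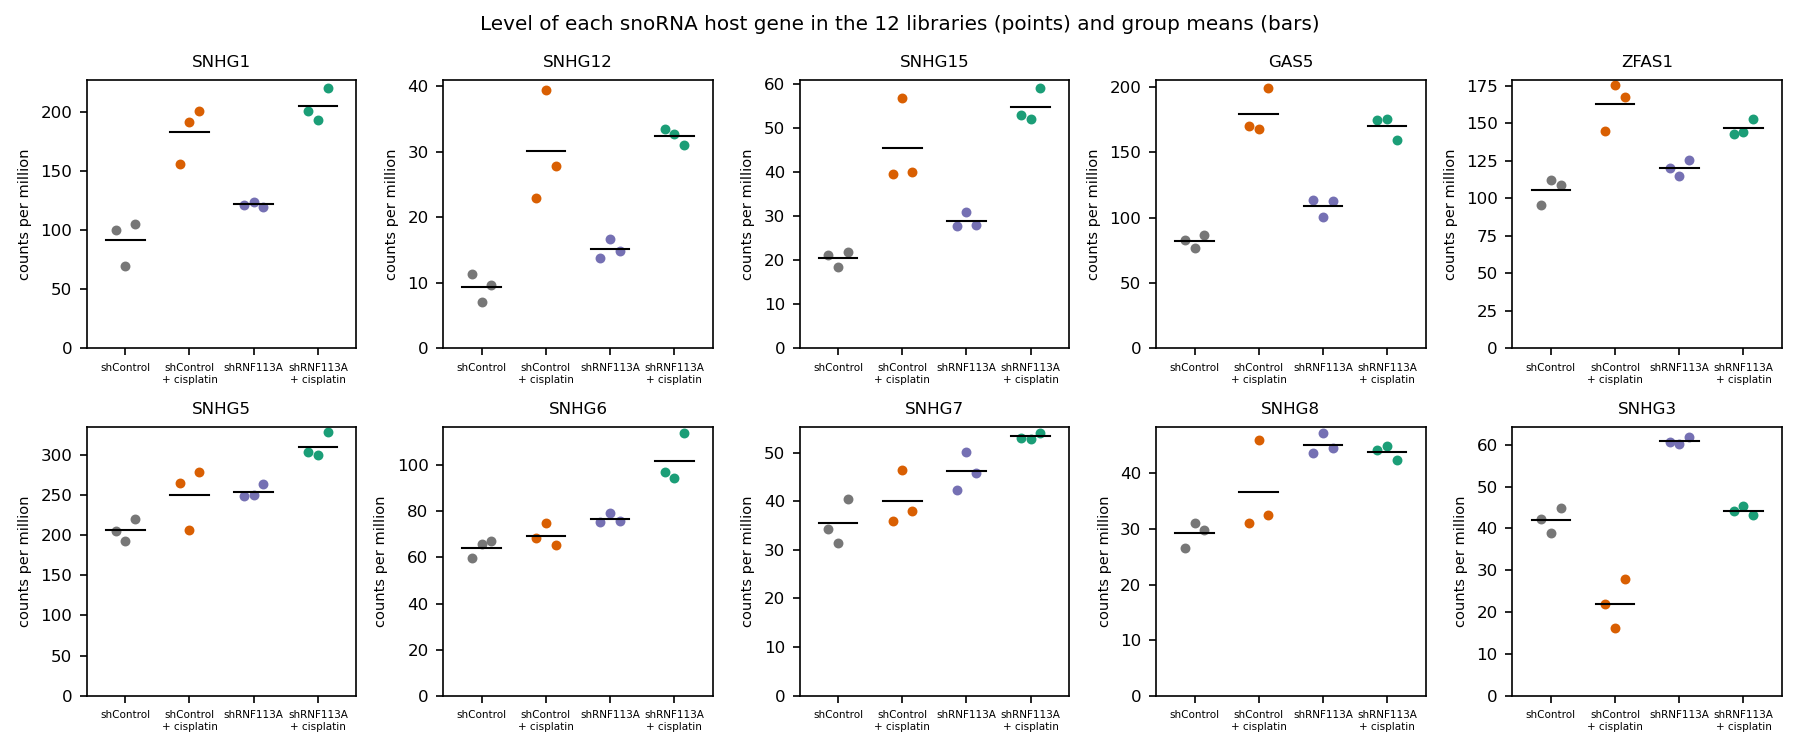
Levels in CPM of the 10 snoRNA host genes (vertical axes, each from 0) in the 4 groups, with 1 point per library and a bar at the group mean (n = 3). SNHG1, SNHG12, SNHG15, GAS5 and ZFAS1 are higher with Cisplatin in both kinds of cells, SNHG3 is lower, and the untreated depleted libraries lie above the untreated control libraries in all 10 panels.

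Upon Cisplatin, over both kinds of cells, 8 of the 10 host genes rose and SNHG3 fell, at an adjusted p under 0.05 (edgeR quasi-likelihood test, adjusted over all 15352 genes). Of all genes tested 34.8% rose and 32.1% fell, so most genes moved and the count of 8 is to be read against that share. Only SNHG12 and SNHG15 changed at least 2-fold, as did 21.5% of all genes. The median log2 fold change was 0.37 over the 10 host genes and 0.028 over all genes. Without the 2 control libraries numbered 2, SNHG7 was lost from the 9 and the other 8 were called.

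SNHG12, the host of SNORA44, SNORA61, SNORA16A and SNORD99, rose most. It was at 11.3, 7.03 and 9.65 CPM in untreated control cells and at 22.9, 39.4 and 27.9 with Cisplatin. In depleted cells it went from 13.7, 16.8 and 14.9 to 33.5, 32.8 and 31.1. The treated libraries all lay above the untreated ones in both kinds of cells, and replicate 2 was the lowest of its untreated and the highest of its treated control group. The log2 fold change was 1.39 (SE 0.16, adjusted p = 3.62e-06) over both, 1.69 in control cells and 1.10 in depleted cells.

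SNHG15, whose intron holds SNORA9, went from 21.3, 18.4 and 22.0 CPM to 39.5, 56.8 and 40.0 in control cells. With depletion it went from 27.7, 30.8 and 27.9 to 52.9, 52.1 and 59.0. No treated library was as low as any untreated one. Its log2 fold change was 1.03 (SE 0.098, adjusted p = 6.41e-07) over both kinds of cells.

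GAS5, named for its accumulation in growth-arrested cells and known as a decoy of the glucocorticoid receptor, was at 82.9, 76.9 and 87.0 CPM in untreated control cells and at 169.7, 168 and 199 with Cisplatin. The depleted cells went from 113, 100.1 and 113 to 174, 175 and 159. Treated and untreated groups were apart in both kinds of cells, and the gap was wider in control cells. GAS5 rose by 1.12 (SE 0.088, adjusted p = 5.39e-07) on the log2 scale in control cells, and by 0.64 (SE 0.087, adjusted p = 4.46e-05) where RNF113A was depleted.

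SNHG1, the host of SNORD22 and SNORD25 to SNORD31, was at 100.4, 69.5 and 105 CPM in untreated and at 156, 191 and 201 in treated control cells. The depleted libraries were at 121, 124 and 119.8 untreated and at 201, 193 and 219.8 with Cisplatin. The low value of 69.5 belongs to replicate 2, and no treated library overlapped an untreated one. The log2 fold change was 0.87 (SE 0.10, adjusted p = 4.32e-06).

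ZFAS1, an RNA antisense to the promoter of ZNFX1, rose less. It was at 95.3, 112 and 109 CPM in untreated and at 145, 175 and 167 in treated control cells. The depleted libraries were at 120.3, 115 and 125 and at 143, 144 and 153. The treated and untreated libraries did not overlap in either kind of cells. Its log2 fold change was 0.45 (SE 0.077, adjusted p = 0.000136) over both, 0.62 in control and 0.29 in depleted cells.

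SNHG3, the host of SNORA73A and SNORA73B, was the only one of the 10 that fell. It was at 42.2, 39.0 and 44.9 CPM in untreated control cells and at 21.9, 16.3 and 27.9 with Cisplatin. In depleted cells it went from 60.7, 60.2 and 62.0 to 44.1, 45.5 and 43.3. The treated libraries lay below the untreated ones in both kinds of cells. The log2 fold change was -0.69 (SE 0.12, adjusted p = 0.000158) over both, -0.93 in control and -0.46 in depleted cells.

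The remaining 4 host genes moved little with Cisplatin. SNHG5, the host of SNORD50A and SNORD50B, was at 205, 193 and 220.5 CPM in untreated and at 264, 207 and 279 in treated control cells. Its depleted libraries were at 248, 249 and 264 and at 303, 299 and 328. Replicate 2 of the treated control cells lay among the untreated ones, and in depleted cells the groups were apart, with a log2 fold change of 0.28 (SE 0.071, adjusted p = 0.00306) over both. SNHG6 (chr8:67834165-67837777, minus strand), the host of SNORD87, overlaps MCMDC2 on the opposite strand. It was at 59.8, 65.8 and 67.0 CPM in untreated and at 68.3, 74.8 and 65.4 in treated control cells, and at 75.5, 79.2 and 75.8 and at 96.8, 94.5 and 114 in depleted cells. The control groups overlapped and the depleted ones did not: SNHG6 rose in depleted cells (0.40, SE 0.086, adjusted p = 0.00136), while in control cells its log2 fold change was 0.11 (SE 0.086, adjusted p = 0.281). SNHG7 was at 34.4, 31.4 and 40.5 CPM in untreated and at 35.8, 46.5 and 38.0 in treated control cells, and at 42.4, 50.1 and 45.9 and at 53.1, 52.8 and 54.1 in depleted cells. Its rise over both kinds of cells, 0.19 (SE 0.080, adjusted p = 0.0463), was just past the threshold and was lost without any 1 of 9 of the 12 libraries (adjusted p from 0.0631 to 0.155), with DESeq2 (0.104) and without the filter on low counts (0.0622). SNHG8, the host of SNORA24, was at 26.7, 31.2 and 29.9 CPM in untreated and at 31.1, 46.1 and 32.5 in treated control cells, and at 43.7, 47.3 and 44.6 and at 44.3, 44.9 and 42.4 in depleted cells. Its log2 fold change over both was 0.14 (SE 0.10, adjusted p = 0.243), and the rise in control cells, 0.32 (SE 0.13, adjusted p = 0.049), was lost without replicate 1 (adjusted p = 0.148) or 3 (0.0813) of the untreated or replicate 2 (0.24) of the treated control cells, and with unstranded counts, a minimum of 10 counts in every library or DESeq2 (adjusted p from 0.0519 to 0.0566).

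**Figure D2:**
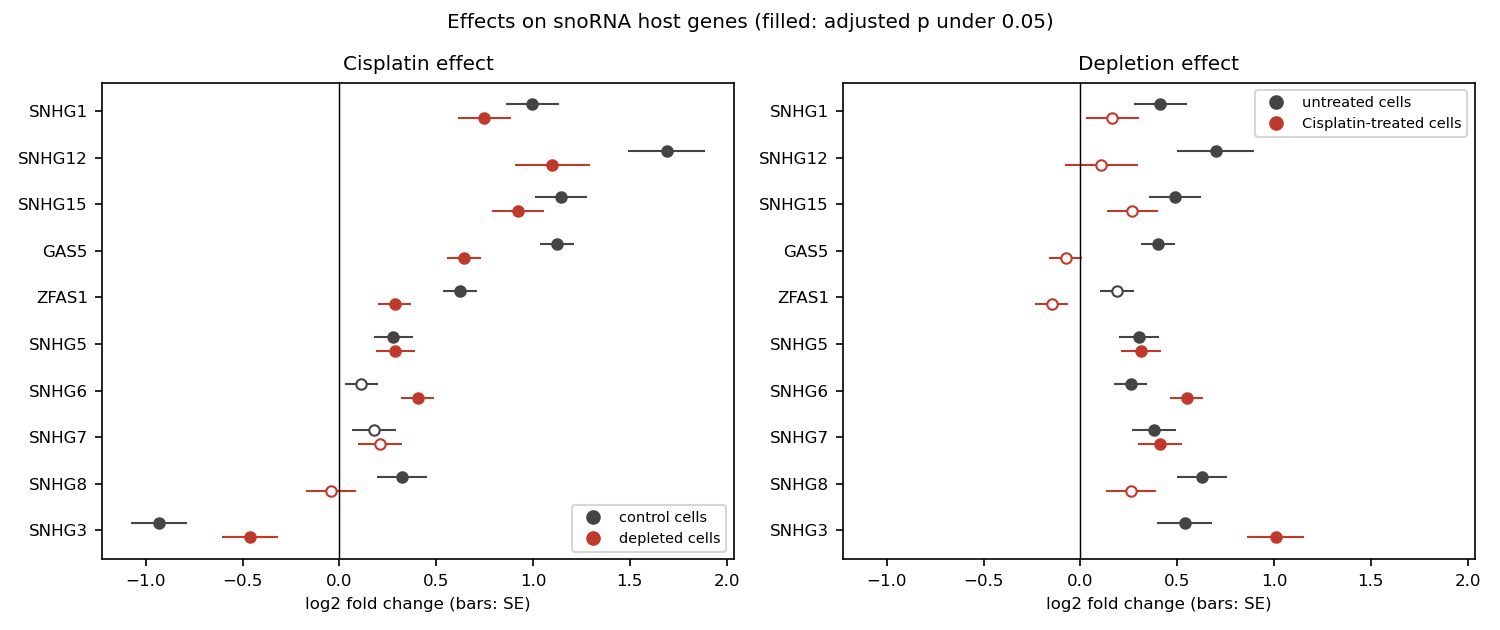
Log2 fold changes of the 10 host genes (horizontal axis, bars are 1 SE) upon Cisplatin in control and depleted cells (left) and upon RNF113A depletion in untreated and Cisplatin-treated cells (right), filled where the adjusted p of edgeR is under 0.05. The Cisplatin effects run from -0.93 for SNHG3 to 1.69 for SNHG12 in control cells, and the depletion effects in untreated cells are all above 0.

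Within single kinds of cells, 7 host genes rose and 1 fell upon Cisplatin in control cells, where 28% of all genes rose, 27% fell and 19.8% were called at 2-fold, as were 3 of the host genes. In depleted cells 7 rose and 1 fell as well, where 32.4% of all genes rose, 27.8% fell and 23.1% were called at 2-fold, as was SNHG12. The calls were not the same, since SNHG8 passed only in control cells and SNHG6 only in depleted cells, and neither difference between the kinds of cells passed the test of the interaction given below. Without the 2 control libraries numbered 2, 7 host genes were called in control cells and 9 in depleted cells.

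Upon RNF113A depletion, over both treatments, 7 of the 10 host genes rose and none fell, where 23.5% of all genes rose and 24% fell. Of all genes 11% changed at least 2-fold, and of the host genes 0. SNHG3 rose by 0.77 (SE 0.12, adjusted p = 0.000205), SNHG8 by 0.44 (SE 0.10, adjusted p = 0.00331) and SNHG6 by 0.40 (SE 0.073, adjusted p = 0.000632) on the log2 scale. SNHG7 rose by 0.39 (SE 0.080, adjusted p = 0.00148), SNHG15 by 0.38 (SE 0.097, adjusted p = 0.00653), SNHG5 by 0.31 (SE 0.071, adjusted p = 0.00341) and SNHG1 by 0.29 (SE 0.10, adjusted p = 0.0307). SNHG12, at 0.39 (SE 0.16, adjusted p = 0.0521), GAS5, at 0.16 (SE 0.090, adjusted p = 0.155), and ZFAS1, at 0.020 (SE 0.076, adjusted p = 0.85), did not pass the test. The call of SNHG1 was lost without any 1 of 6 of the 12 libraries (adjusted p from 0.0558 to 0.106). SNHG12 was called with library size in place of TMM (adjusted p = 0.0463), with a minimum of 10 counts in every library (0.0493) and without both control libraries numbered 2 (0.00102). The median was 0.38 over the host genes and -0.0018 over all genes. CD68, a lysosomal protein listed among the markers of other cells, rose as well. Its log2 fold change was 0.77 (SE 0.11, adjusted p = 0.000131) over both treatments and 1.05 (SE 0.11, adjusted p = 4.22e-05) in treated cells. The other 5 markers of other cells stayed at 0 to 0.558 CPM, PTPRC, the common marker of leukocytes, at 0.128 CPM or less. Which cells the CD68 reads came from was not tested, nor was the part of such cells in the host genes' values. The comparisons upon depletion and upon Cisplatin share libraries and are not independent of each other.

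In untreated cells the rise upon depletion was called for 9 of the 10 host genes, where 12.8% of all genes rose, 14.6% fell and 8.66% were called at 2-fold, as was no host gene. In all 10 the 3 depleted libraries lay above the 3 control libraries, as they did for 21.6% of all genes tested. The log2 fold changes were largest for SNHG12 (0.70, SE 0.20, adjusted p = 0.0209), SNHG8 (0.63, SE 0.13, adjusted p = 0.00379) and SNHG3 (0.54, SE 0.14, adjusted p = 0.0157). GAS5 rose by 0.40 (SE 0.087, adjusted p = 0.00519) and SNHG1 by 0.41 (SE 0.14, adjusted p = 0.0431), and ZFAS1 was at 0.19 (SE 0.086, adjusted p = 0.123). The calls for SNHG1, SNHG5, SNHG6 and SNHG7 lay close to the threshold (adjusted p from 0.0286 to 0.0452), and the count of 9 fell to 5 when replicate 2 of the untreated control group was left out, to 3 when replicate 2 of the untreated depleted group was, and to 5 when replicate 3 of the latter was. It was 10 without both control libraries numbered 2.

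In Cisplatin-treated cells the rise was called for 4, where 21.1% of all genes rose, 21.8% fell and 12.3% were called at 2-fold, as was SNHG3. SNHG3 rose by 1.01 (SE 0.15, adjusted p = 0.000265), SNHG6 by 0.55 (SE 0.086, adjusted p = 0.000419), SNHG7 by 0.41 (SE 0.11, adjusted p = 0.0129) and SNHG5 by 0.31 (SE 0.10, adjusted p = 0.0265). The 6 others were between -0.15 (ZFAS1) and 0.27 (SNHG15), and GAS5 was at -0.077 (SE 0.087, adjusted p = 0.495). The count was 2 without replicate 1 or without replicate 2 of the treated depleted cells. Without replicate 1 of the treated control cells 2 host genes rose and ZFAS1 fell (-0.28, adjusted p = 0.0297). Without the 2 control libraries numbered 2 it was 7, with SNHG8 (0.46, adjusted p = 0.000124), SNHG12 (0.35, adjusted p = 0.011) and SNHG15 (0.46, adjusted p = 0.00017) added.

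Whether the Cisplatin effect differed between depleted and control cells was tested by the interaction, which 1.98% of all genes passed in the positive and 2.27% in the negative direction. GAS5 was the only host gene called, with a difference of -0.48 (SE 0.12, adjusted p = 0.0493): Cisplatin raised it 2.18-fold in control cells and 1.56-fold in depleted cells. Leaving out single libraries kept the difference between -0.56 and -0.43, with adjusted p from 0.0259 to 0.132, over 0.05 for 9 of the 12. For the others the difference was between -0.59 (SE 0.27, adjusted p = 0.237) for SNHG12 and 0.47 (SE 0.20, adjusted p = 0.203) for SNHG3, and none passed.

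The host genes did not move as 1 group across the 12 libraries. Over the 45 pairs of them, Pearson's r of log2 CPM ran from -0.61 to 0.98 with a median of 0.65, and it was negative in 5 pairs. These values are a description, since the 4 conditions set much of them. Among the 9769 tested genes whose mean was 10 CPM or more, the gene with the pattern most like GAS5 was IRAK2 (r = 0.991 over 12 libraries), that most like SNHG15 was METTL13 (0.981), that most like SNHG1 was INTS6 (0.98) and that most like SNHG12 was ZNF131 (0.979). For SNHG6 it was ACADVL (0.978), for ZFAS1 ZNF383 (0.975), for SNHG3 TMEM50B (0.971), for SNHG5 ADAT2 (0.965), for SNHG7 C9orf142 (0.964) and for SNHG8 TAB1 (0.952).

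The genes around this pathway were read from lists, whose counts stand against 34.8% of all genes that rose and 32.1% that fell upon Cisplatin, and 23.5% and 24% upon depletion. Of 10 other noncoding snoRNA hosts tested, 4 rose and 3 fell upon Cisplatin, with SNHG11 (0.83, SE 0.13, adjusted p = 9.69e-05) and SNHG16 (0.78, SE 0.059, adjusted p = 7.27e-08) the largest rises on the log2 scale and DANCR (-0.49, SE 0.18, adjusted p = 0.0285) the largest fall. Upon depletion 7 of them rose, led by SNHG20 (0.95, SE 0.17, adjusted p = 6e-04), and none fell. Of 33 protein-coding snoRNA hosts, 4 rose and 3 fell upon Cisplatin. The falls included HSPA8, a chaperone (-0.81, SE 0.076, adjusted p = 6.12e-07), and RPL3, a ribosomal protein (-0.77, SE 0.070, adjusted p = 4.51e-07). Upon depletion 12 rose and 1 fell, with PPAN, a ribosome biogenesis factor, the largest rise (0.95, SE 0.15, adjusted p = 0.000209).

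Of the 8 proteins of the snoRNA particles, 2 rose and 2 fell upon Cisplatin, and 3 rose upon depletion. NOP56, a core protein of box C/D particles whose gene also hosts snoRNAs, rose in both (0.43 upon Cisplatin and 0.45, SE 0.13, adjusted p = 0.0141 upon depletion). Of 8 factors that assemble these particles, 3 rose and 1 fell upon Cisplatin and 1 rose and 1 fell upon depletion. RUVBL1, an ATPase of that assembly, was the fall in both (-0.26, SE 0.076, adjusted p = 0.00744 upon Cisplatin and -0.31, SE 0.076, adjusted p = 0.00472 upon depletion). Of 14 factors of nonsense-mediated decay, the pathway that removes many spliced host RNAs, 11 rose and 1 fell upon Cisplatin, with a median log2 fold change of 0.45. SMG8 (0.93, SE 0.077, adjusted p = 1.87e-07) and UPF1, the central helicase (0.73, SE 0.080, adjusted p = 2.66e-06), rose most, and SMG6, an endonuclease, fell (-0.35, SE 0.12, adjusted p = 0.0212). Upon depletion 4 of the 14 rose, led by SMG5 (0.60, SE 0.045, adjusted p = 6.19e-07). Of the 8 A549 markers, 7 fell upon Cisplatin and 5 upon depletion, and their summed level was 23670 to 31240 CPM in untreated and 14420 to 17550 CPM in treated control cells. It was 26560 to 27910 CPM in untreated and 12960 to 14250 CPM in treated depleted cells, and the part of this shift in the host genes' values was not tested.

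The snoRNAs themselves have rows of their own, which lie in the introns of the hosts. A read on such a row can come from the snoRNA, from an excised intron or from unspliced host RNA, and these cannot be told apart. The libraries were made with a kit that selects polyadenylated RNA, and mature snoRNAs carry no poly(A) tail. Of 36 listed snoRNA symbols 33 had a row and 30 were tested. Rows of the same host, such as the 10 in GAS5 and the 8 in SNHG1, are not independent of each other. The shares over all genes given beside them are of gene rows, most of which count exons, so they are not a like background. No share over intronic rows of other genes was computed. Upon depletion 26 of the 30 rose, 14 of them at least 2-fold, and none fell, where 23.5% of all genes rose and 11% changed at least 2-fold. The largest rises were SNORD75 (1.47, SE 0.45, adjusted p = 0.0157) and SNORD74 (1.42, SE 0.26, adjusted p = 0.000766), both in GAS5, with 1 to 17 reads per library for SNORD75. Upon Cisplatin 8 of the 30 rose and none fell, a smaller share than the 34.8% of all genes, led by SNORD12B of ZFAS1 (1.10, SE 0.33, adjusted p = 0.0099) and SNORA44 of SNHG12 (1.03, SE 0.21, adjusted p = 0.000733). The rows of SNORA17 and SNORA43 in SNHG7 were listed at 0 in every library.

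**Figure D3:**
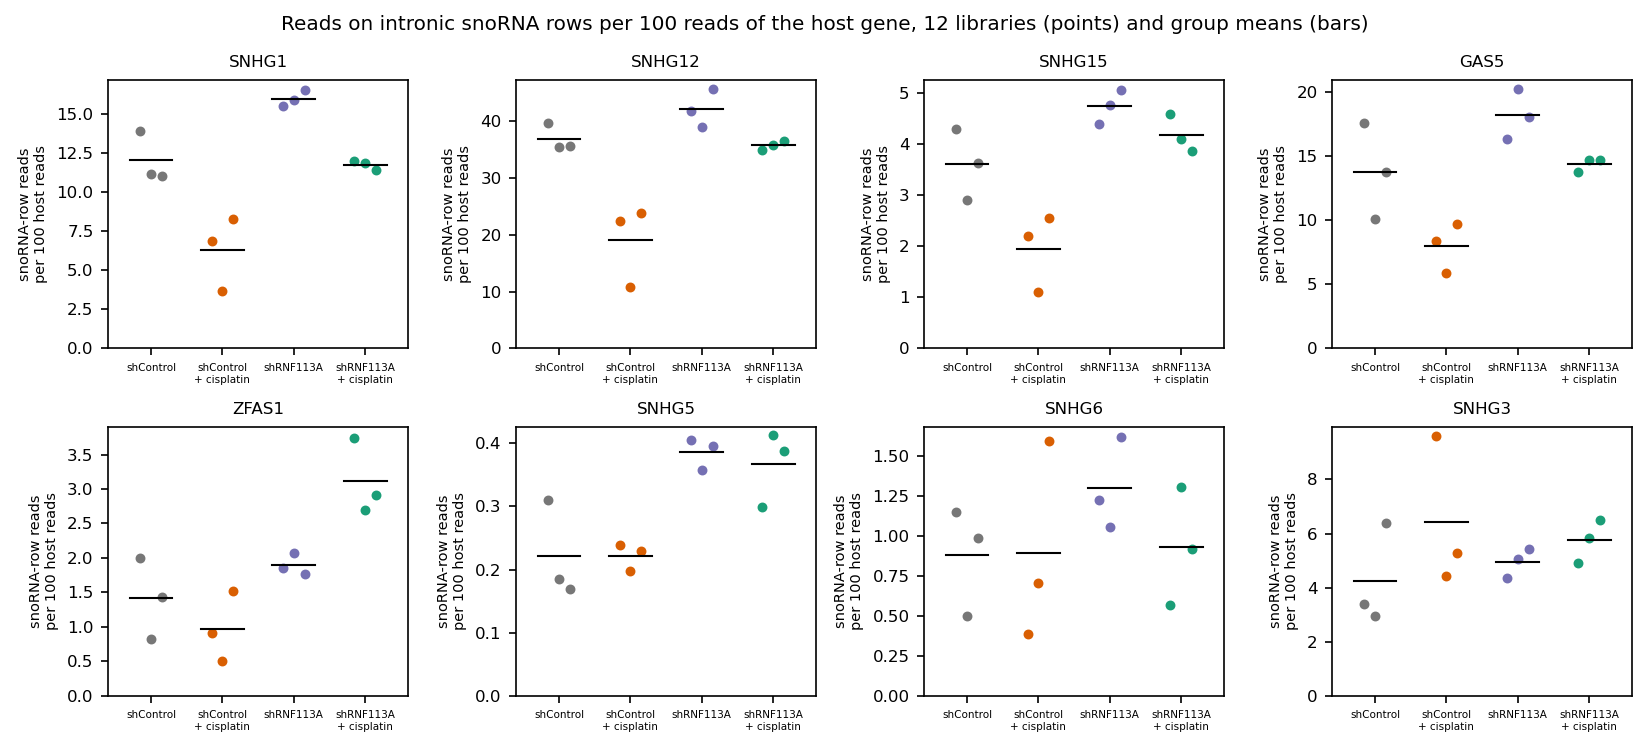
Reads on the rows of intronic snoRNAs per 100 reads of their host gene (vertical axes, each from 0) for 8 host genes in the 4 groups, with 1 point per library and a bar at the group mean (n = 3). In SNHG1, SNHG12, SNHG15 and GAS5 the 3 treated control libraries lie below all other libraries, and in SNHG3 and SNHG6 the groups overlap.

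Set against the reads of the host, intronic snoRNA reads fell upon Cisplatin for 4 hosts and rose upon depletion for 6. Each difference tested is a mean over both levels of the other factor. The 8 hosts with a mean of at least 20 such reads per library were compared on the log2 ratio. A two-sided exact permutation test was run within each level of the other factor, with 400 arrangements. Its smallest possible p was 0.005, and adjustment was over 16 tests. The ratio was not computed for other genes, so no share over all genes stands beside these counts. The paper reports that RNF113A depletion raised the share of intronic reads for most genes. SNHG1 had 13.9, 11.2 and 10.99 snoRNA-row reads per 100 host reads in untreated and 6.86, 3.69 and 8.28 in treated control cells. The depleted libraries had 15.5, 15.9 and 16.6 untreated and 11.99, 11.8 and 11.4 with Cisplatin. The groups were apart for either factor. The log2 difference was -0.73 (SE 0.18, exact permutation p = 0.005, adjusted p = 0.0133) for Cisplatin and 0.70 (SE 0.18, exact permutation p = 0.005, adjusted p = 0.0133) for depletion.

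SNHG12 had 39.8, 35.5 and 35.7 snoRNA-row reads per 100 host reads in untreated and 22.5, 10.8 and 23.8 in treated control cells, and 41.8, 39.0 and 45.7 and 34.9, 35.9 and 36.6 in depleted cells. The 3 treated control libraries were the lowest, replicate 2 by far. The log2 difference was -0.64 (SE 0.19, exact permutation p = 0.005, adjusted p = 0.0133) for Cisplatin and 0.59 (SE 0.19, exact permutation p = 0.01, adjusted p = 0.0178) for depletion. GAS5 had 17.6, 10.1 and 13.8 reads per 100 in untreated and 8.35, 5.86 and 9.74 in treated control cells, and 16.4, 20.3 and 18.1 and 13.8, 14.8 and 14.8 in depleted cells. The log2 difference was -0.56 (SE 0.17, exact permutation p = 0.005, adjusted p = 0.0133) for Cisplatin and 0.66 (SE 0.17, exact permutation p = 0.01, adjusted p = 0.0178) for depletion. For SNHG15 the differences were -0.57 (SE 0.21, exact permutation p = 0.01, adjusted p = 0.0178) for Cisplatin and 0.79 (SE 0.21, exact permutation p = 0.005, adjusted p = 0.0133) for depletion. The difference for Cisplatin in SNHG15 was -0.96 in control cells, where treated and untreated libraries were apart. In depleted cells it was -0.19, and there the libraries overlapped.

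ZFAS1 had 2.00, 0.817 and 1.44 snoRNA-row reads per 100 host reads in untreated and 0.907, 0.508 and 1.51 in treated control cells, and 1.85, 2.08 and 1.76 and 3.74, 2.70 and 2.91 in depleted cells. The untreated groups overlapped and the treated groups did not. Upon depletion the ratio rose by 1.15 (SE 0.30, exact permutation p = 0.015, adjusted p = 0.024), and upon Cisplatin the difference was 0.059 (SE 0.30, exact permutation p = 0.89, adjusted p = 0.905). The latter is the mean of effects of opposite sign. It was -0.58 in control cells, where treated and untreated libraries overlapped, and 0.70 in depleted cells, where they did not. SNHG5 rose upon depletion, by 0.77 (SE 0.16, exact permutation p = 0.005, adjusted p = 0.0133), with 0.168 to 0.311 reads per 100 in untreated control cells and 0.358 to 0.406 in untreated depleted cells. Its ratio rests on few reads, 14 to 40 snoRNA-row reads per library. SNHG3 and SNHG6 passed neither test, so 10 of the 16 tests were called. Without the 2 control libraries numbered 2, 8 were called, and those of SNHG15 upon Cisplatin and of ZFAS1 upon depletion were at an adjusted p of 0.0533.

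Splicing of the host genes was read from the authors' event tables, which give reads of the form with an intron or exon (inclusion) and of the form without it (skipping). The inclusion level is the share of the first form after division of each count by the length over which it was counted. Inclusion reads of an intron include reads that lie within it. Reads from a snoRNA or an excised intron therefore cannot be told apart from retained intron. Each table lists 18 or 19 retained introns of host genes, in GAS5, SNHG1, SNHG12 and SNHG5 only, and several overlap each other, so they are not independent. The 3 libraries of a group are not named in these tables and their values are given in table order. Calls are at an adjusted p under 0.05 from edgeR, over all tested events of the category and comparison.

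Upon Cisplatin, some retained introns of host genes fell, none rose and most did not pass the test. In control cells 4 of 19 fell, where 0.27% of all retained introns fell and 0.27% rose. In depleted cells 7 of 18 fell, where 2.17% of all retained introns fell and 12.3% rose. Upon depletion 8 of 19 rose and 1 fell in untreated cells, where 15.9% of all rose and 0.302% fell, and in treated cells 12 of 18 rose and none fell, where 24.3% of all rose and 0.639% fell. The count of 4 in control cells rests on few libraries, being 0 without the first listed untreated library and 10 without the third listed treated one. The count of 9 upon depletion in untreated cells was 3 without the second listed control library and 5 without any 1 of the depleted libraries. The difference in the Cisplatin effect between the kinds of cells was not tested for introns.

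Introns 3 and 6 of SNHG1, which hold SNORD27 and SNORD29, and intron 10 of GAS5, which holds SNORD47, were among the introns called and are shown 5′ to 3′ with the snoRNA in capitals (GRCh37, minus strand):
SNHG1 intron 3 (chr11:62622411-62622604): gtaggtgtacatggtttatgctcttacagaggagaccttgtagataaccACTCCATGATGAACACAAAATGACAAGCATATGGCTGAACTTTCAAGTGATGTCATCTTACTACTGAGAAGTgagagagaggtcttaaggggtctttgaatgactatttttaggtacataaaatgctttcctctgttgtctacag
SNHG1 intron 6 (chr11:62621306-62621489): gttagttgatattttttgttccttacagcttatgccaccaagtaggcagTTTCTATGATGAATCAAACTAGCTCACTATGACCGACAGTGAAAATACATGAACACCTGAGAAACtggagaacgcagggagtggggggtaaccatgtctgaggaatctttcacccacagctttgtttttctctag
GAS5 intron 10 (chr1:173833443-173833621): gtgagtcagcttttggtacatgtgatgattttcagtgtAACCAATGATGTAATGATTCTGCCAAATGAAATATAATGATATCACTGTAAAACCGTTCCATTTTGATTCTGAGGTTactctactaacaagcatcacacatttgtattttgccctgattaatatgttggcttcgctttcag
All 3 begin with gt and end with ag, and the snoRNA ends 64 to 73 bases before the end of the intron. All 3 are box C/D snoRNAs.

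SNHG1 intron 3 was the only retained intron called in all 4 comparisons. Its inclusion level was 0.222, 0.182 and 0.204 in untreated and 0.103, 0.0477 and 0.115 in treated control cells. In depleted cells it was 0.320, 0.295 and 0.351 untreated and 0.184, 0.183 and 0.164 with Cisplatin. No groups overlapped in any comparison. The mean level changed by -0.114 (adjusted p = 0.00669) upon Cisplatin in control cells and by -0.145 (adjusted p = 1.17e-08) in depleted cells. Upon depletion it changed by 0.119 (adjusted p = 0.00204) in untreated and by 0.0888 (adjusted p = 0.00092) in treated cells.

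SNHG1 intron 6 was at 0.280, 0.240 and 0.251 in untreated and at 0.147, 0.0780 and 0.157 in treated control cells. The depleted libraries were at 0.333, 0.286 and 0.336 and at 0.301, 0.282 and 0.295. The 3 treated control libraries were the lowest of all. The fall upon Cisplatin was called in control cells (-0.130, adjusted p = 0.0209) and the difference in depleted cells was -0.0255 (adjusted p = 0.588). The rise upon depletion was called in treated cells (0.166, adjusted p = 1.91e-05), and in untreated cells the difference was 0.0611 (adjusted p = 0.166).

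GAS5 intron 10 was at 0.226, 0.136 and 0.184 in untreated and at 0.106, 0.0690 and 0.136 in treated control cells, and at 0.239, 0.282 and 0.287 and 0.181, 0.208 and 0.191 in depleted cells. Upon depletion it rose by 0.0877 (adjusted p = 0.00359) in untreated and by 0.0901 (adjusted p = 0.00188) in treated cells. Upon Cisplatin it fell in depleted cells, with a difference of -0.0759 (adjusted p = 0.00177), and in control cells the difference was -0.0783 (adjusted p = 0.134). A longer event of GAS5 (chr1:173833443-173833812) contains the same intron, the next one and the short RefSeq exon between them. Its inclusion level was 0.908, 0.911 and 0.856 in untreated and 0.681, 0.693 and 0.735 in treated control cells, and 0.800, 0.832 and 0.821 and 0.593, 0.698 and 0.590 in depleted cells. It fell upon Cisplatin in control (-0.188, adjusted p = 0.00163) and depleted cells (-0.191, adjusted p = 1.19e-10) and was the 1 event that fell upon depletion in untreated cells (-0.0737, adjusted p = 0.0236). Its inclusion form also counts reads of the short exon, so it is not a measure of retained intron alone.

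Intron 4 of SNHG12 (chr1:28906100-28906423, with SNORA61) had the largest difference of all named events. Its inclusion level was 0.784, 0.614 and 0.579 in untreated and 0.416, 0.232 and 0.441 in treated control cells. In depleted cells it was 0.639, 0.733 and 0.752 untreated and 0.655, 0.619 and 0.699 with Cisplatin. The treated control libraries lay below all others. Cisplatin lowered it in control cells (-0.296, adjusted p = 0.00163), and in depleted cells the difference was -0.0505 (adjusted p = 0.411). Upon depletion it rose in treated cells (0.295, adjusted p = 4.97e-06), and in untreated cells the difference was 0.0492 (adjusted p = 0.544). It was the only retained intron of a host gene that passed both the test and a difference of 0.2 in mean level, in these 2 comparisons. The row of SNORA61 had 52 to 189 reads per library, and their part in the inclusion level was not tested. The event of GAS5 at chr1:173834421-173834647, with SNORD79, rose upon depletion in untreated cells (0.102, adjusted p = 0.0456) and fell upon Cisplatin in depleted cells (-0.0918, adjusted p = 0.0263). Its differences upon Cisplatin in control cells (-0.0718, adjusted p = 0.772) and upon depletion in treated cells (0.0823, adjusted p = 0.169) did not pass.

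**Figure D4:**
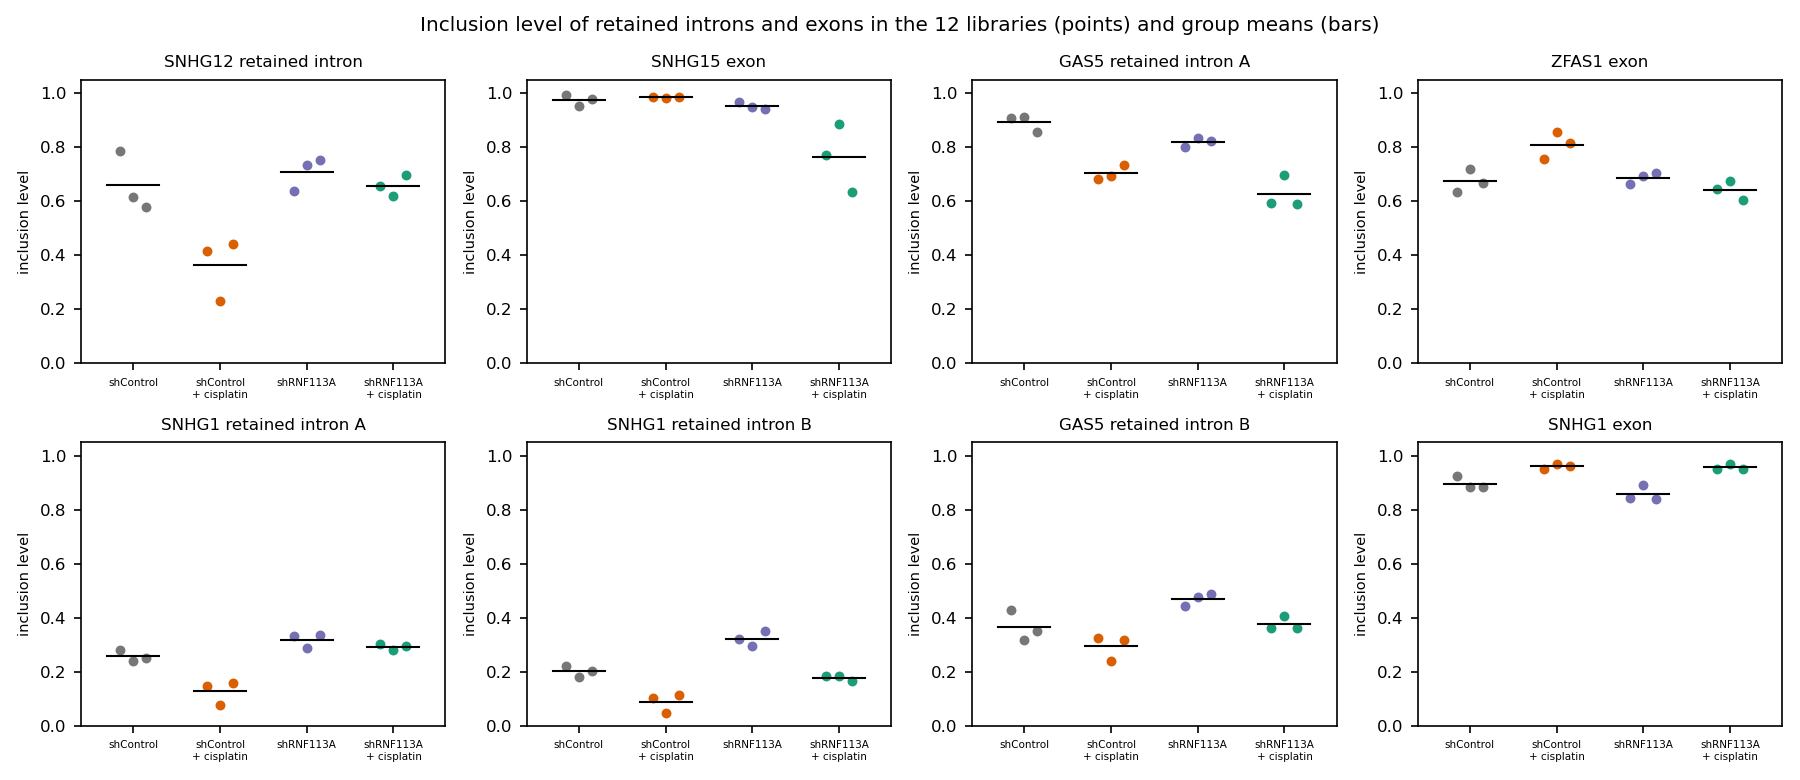
Inclusion levels (vertical axes, 0 to 1) of named splicing events of host genes in the 4 groups, with 1 point per library and a bar at the group mean (n = 3). For SNHG1, A is intron 6, B intron 3 and the exon is exon 4, and for GAS5, A is the longer event and B the event with SNORD79. SNHG12 intron 4 and both SNHG1 introns are lowest in treated control cells, and SNHG15 exon 3 is below 0.9 only in treated depleted cells.

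Among other events, upon Cisplatin 11 of 233 tested in host genes were called in control cells, where 0.491% of all such events were, and 29 of 241 in depleted cells, where 1.91% of all were. Upon depletion 12 of 212 were called in untreated cells and 37 of 235 in treated cells, against 0.193% and 1.2% of all. These 89 calls count overlapping events of GAS5, SNHG1 and ZFAS1 each time. No event of SNHG3 or SNHG7 was called. For SNHG3 none was listed to test upon Cisplatin in either kind of cells or upon depletion in treated cells. The count of 89 was 54 without the third listed treated depleted library. Exon 3 of 5 of SNHG15 and exon 4 of 5 of ZFAS1 changed in treated cells and are shown with 10 bases of intron on either side, 5′ to 3′, the exon in capitals (GRCh37):
SNHG15 exon 3 (chr7:45023946-45024035, minus strand): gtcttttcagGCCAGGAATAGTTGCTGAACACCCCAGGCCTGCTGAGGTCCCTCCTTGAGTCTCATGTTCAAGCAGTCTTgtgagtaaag
ZFAS1 exon 4 (chr20:47897430-47897511, plus strand): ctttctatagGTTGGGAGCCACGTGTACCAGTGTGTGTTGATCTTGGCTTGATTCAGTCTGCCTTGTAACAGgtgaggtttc
Both exons are cut at ag and gt, and are 70 and 62 bases long.

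Inclusion of SNHG15 exon 3 was 0.991, 0.951 and 0.977 in untreated and 0.987, 0.982 and 0.987 in treated control cells. It was 0.965, 0.948 and 0.943 in untreated and 0.771, 0.886 and 0.635 in treated depleted cells. The 3 treated depleted libraries lay below all others and varied most. Upon depletion it fell in treated cells (-0.221, adjusted p = 8.12e-15), and upon Cisplatin it fell in depleted cells (-0.188, adjusted p = 3.78e-06). The differences were -0.0210 (adjusted p = 0.705) upon depletion in untreated cells and 0.0124 (adjusted p = 0.72) upon Cisplatin in control cells.

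Inclusion of ZFAS1 exon 4 was 0.635, 0.719 and 0.667 in untreated and 0.756, 0.855 and 0.815 in treated control cells. It was 0.662, 0.692 and 0.703 in untreated and 0.645, 0.675 and 0.606 in treated depleted cells. The treated control libraries lay above all others. Upon depletion it fell in treated cells (-0.167, adjusted p = 0.00692), and the difference upon Cisplatin in control cells was 0.135 (adjusted p = 0.116). Exon 4 of 11 of SNHG1 (chr11:62622360-62622410), which follows intron 3, was included more upon Cisplatin in depleted cells (0.0989, adjusted p = 1.48e-05).

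Pairs of mutually exclusive exons of SNHG1 overlap each other, and their calls upon Cisplatin in depleted cells went both ways. Of exon 5 (chr11:62621991-62622023) and an exon at chr11:62622605-62622680 next to intron 3, the form with the latter fell by 0.227, from a mean level of 0.869 to 0.641 (adjusted p = 0.00194, 61 to 139 reads per library). Of exons 4 and 6 (chr11:62621490-62621536), the form with exon 4 rose from 0.372 to 0.529 (adjusted p = 1.17e-05), and of exons 4 and 5 the form with exon 4 rose from 0.410 to 0.564 (adjusted p = 3.32e-05). Counted as a skipped exon, exon 6 was included less (-0.104, adjusted p = 2.92e-06). In all 50 called pairs of host genes on the minus strand, the length over which the inclusion form was counted fitted only the exon listed second, and that exon is the one named here as the form.

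In SNHG8 an alternative 5′ splice site event (chr4:119199864-119200292) rose upon Cisplatin in control cells, from 0.754, 0.728 and 0.726 to 0.842, 0.903 and 0.855 (0.131, adjusted p = 0.00423), and fell upon depletion in treated cells (-0.110, adjusted p = 0.00698). In SNHG15 such an event (chr7:45025481-45025696) rose upon depletion in treated cells, from 0.105, 0.0640 and 0.119 to 0.189, 0.174 and 0.196 (0.0905, adjusted p = 0.00435).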

How the data were processed

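RNA sequencing was performed on 12 stranded mRNA libraries of A549 cells, 3 for each of 4 groups set by shRNA and treatment. The authors removed reads of ribosomal and other abundant RNA, trimmed the rest, aligned them to hg19 with STAR 2.5.2b (version from the submitters' processing notes) and deposited raw counts of read pairs per gene. The authors also deposited raw read counts of the inclusion and skipping forms of splicing events, from rMATS, for 4 comparisons that share libraries. The deposited p-values, FDR and differences of inclusion level of those tables are the authors' own results and were not used, nor were the counts of protein-coding genes, which hold no host gene. Host genes, snoRNAs and lists were chosen with earlier results of these data known.

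Counts of the strand of the gene were tested with edgeR 4.0.16 in R 4.3.3 (TMM scaling, filterByExpr, quasi-likelihood test, Benjamini-Hochberg adjustment over all tested genes, threshold 0.05). An additive model gave the effects of Cisplatin and depletion, and a model with 1 mean per group gave the interaction and the single effects, so all 4 groups share 1 estimate of the spread. Levels are TMM-scaled CPM. The SE is the log2 fold change divided by the square root of the F value. Splicing events with a mean of at least 10 reads per library were tested with edgeR as inclusion against skipping reads with a term per library. The snoRNA ratio is the log2 of snoRNA-row reads over host reads, each plus 0.5. RefSeq transcripts came from the annotation that the authors merged and deposited, and sequences from GRCh37.

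All 10 host genes are named. Of their called splicing events the 12 with the largest difference of inclusion level are named, 1 per intron or exon, except that GAS5 intron 10 was added after its values were seen. Of each list the 2 largest called rises and falls may be named, and for each host gene the gene with the highest Pearson's r of log2 CPM. On simulated counts with 200 genes changed by 0.5 on the log2 scale, the Cisplatin test called 135 of 200 among 15111 genes and the depletion test 133 among 15128, with 11 and 3 false calls. With a change of 1 they called 192 among 15098 and 193 among 15116, with 14 and 8 false calls. For retained introns upon depletion in untreated cells, 112 of 200 changes of 1 among 3594 events were called, with 2 false calls. Changes were planted only in genes and events with many reads, and in events only at middle inclusion levels. The spread of the simulated events was a fixed setting that was not estimated from the data. These counts therefore do not give the rates for genes or events with few reads.

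Replicate numbers would pair libraries where same-numbered deviations correlate and unlike-numbered ones do not. In control cells the 3 same-numbered pairs of untreated and treated libraries had Pearson's r of 0.632, 0.731 and 0.48 across 9779 genes. Untreated replicate 1 with treated replicate 3 had 0.585, and untreated replicate 3 with treated replicate 1 had 0.533. The values set replicate 2 apart and do not show that the numbers pair replicates 1 and 3. In depleted cells r of the same-numbered pairs was 0.406, -0.0647 and 0.299, and the numbers do not pair them. Alternatives were another scaling, filter, tool and strand setting, the replicate block, a pseudocount of 5 for the ratio and leaving out libraries. Leaving out both control libraries numbered 2 and the block in control cells alone were chosen after seeing the data.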

Additional observations from a re-analysis of the deposited data

Results flagged for a closer look

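The Cisplatin effect on GAS5 differed between RNF113A-depleted and control cells, by -0.48 on the log2 scale (SE 0.12, adjusted p = 0.0493 of the interaction in edgeR). GAS5 rose 2.18-fold upon Cisplatin in control cells and 1.56-fold in depleted cells, with treated above untreated in all 3 libraries of either kind of cells. The difference kept its sign without each single library, and its adjusted p was over 0.05 without 9 of the 12. With DESeq2 it was 0.00495, and without any filter on low counts 0.0621.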

How the results depend on the processing

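The replicate block, which fits the replicate number as a term, changed no call of a host gene: 9 were called upon Cisplatin over both kinds of cells, 7 upon depletion over both treatments and 1 in the interaction, as without it, and 8 in control cells also when these were fitted alone. No paired analysis was possible for splicing events because the tables do not name the libraries.

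The interaction called 0 host genes without a filter on low counts, against 1, and 0 to 1 without single libraries. Over all genes it called 652, and 1378 with DESeq2, 171 to 1547 without single libraries and 2627 without both control libraries numbered 2. Without these 2 libraries the depletion effect in treated cells was called for 7 host genes, against 4, and the depletion effect in untreated cells for 6469 genes, against 4207.

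Without single libraries the host genes called were 8 to 9 upon Cisplatin, 6 to 8 upon depletion, 6 to 7 upon Cisplatin in control cells, 7 to 8 in depleted cells, 3 to 8 upon depletion in untreated cells and 2 to 5 in treated cells, and over all genes 2682 to 4749 were called upon depletion in untreated cells. Retained introns called were 0 to 10 upon Cisplatin in control cells, 5 to 7 in depleted cells, 3 to 8 upon depletion in untreated cells and 8 to 14 in treated cells, other events 54 to 92, and ratio tests 9 to 10.

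Signs turned only for differences that were not called. The interaction of SNHG5 (0.010) was -0.0047 with unstranded counts, -0.0071 without the filter, -0.022 with DESeq2, -0.066 without both control libraries numbered 2 and -0.15 to 0.054 without single libraries. That of SNHG7 was -0.0019 with DESeq2 and -0.090 to 0.11 without single libraries, and that of SNHG15 was 0.042 without both. The Cisplatin effect on SNHG8 in depleted cells was 0.050 with library size in place of TMM, which moves the median of all genes upon Cisplatin from 0.028 to 0.125, and that on SNHG7 in control cells was -0.020 without both. The depletion effect on ZFAS1 was -0.0061 with DESeq2 and -0.030 to 0.038 without single libraries, and that on SNHG12 in treated cells -0.11 to 0.30. The snoRNA ratio of SNHG3 upon depletion was -0.12 without both and -0.012 to 0.27 without single libraries. Upon Cisplatin that of SNHG5 was -0.11 to 0.11 and that of ZFAS1 -0.13 to 0.26. The causes were not tested. Comparisons of 3 against 3 libraries were not simulated for gene counts.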
